A study of Mus musculus with 6 samples.

Results

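The 10 genes described here encode the enzymes that make and break down polyamines and the antizyme proteins that control them. They were chosen by name, and a row of the deposited count files was taken when its gene name was 1 of the 10 or joined 1 of the 10 to another gene. All 10 were found among the 23698 gene rows. *Amd1* shares its row with its near copy *Amd2*, and *Oaz1* shares its row with *Oaz1-ps*, so the reads of each such pair cannot be told apart.

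The cells are SCCc, mouse squamous cell carcinoma cells in culture. They derive from primary keratinocytes of newborn (P0) back skin that carry *HrasG12V* and a knockout of *Tgfbr2* (labelled *Tgfbr2* fl/fl KO), and were used at passages 10 to 15. The libraries analysed were 1 ribosome profiling library, which sequences the mRNA fragments covered by ribosomes (footprints), and 2 RNA-seq replicates of the same cells. The labels do not say whether the replicates came from separate cultures, so the spread between them may be technical. This series holds 1 ribosome profiling library of these cells, and further ones of the study, from another series, were not analysed here.

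Exon counts summed to 3549555 for ribosome profiling, and to 10707930 and 14003713 for replicates 1 and 2 of RNA-seq. Of the footprint counts, 90.1% lay on coding sequence (CDS), 4.5% on 5′UTRs and 1.84% on 3′UTRs. In RNA-seq the 3′UTRs held 27.2% and 25.2% of the counts in replicates 1 and 2. All 8 keratinocyte markers examined, among them *Krt5* with 7965 and 9483 RPKM in the replicates, had more than 1 RPKM in both, and their summed level was 14559 and 16674 RPKM. The summed level of 7 fibroblast markers was 9.98 and 15.6 RPKM, with *Col3a1* the most abundant at 3.89 and 5.49 RPKM. The sums were 5.46 and 5.65 RPKM for 5 melanocyte markers, mostly from *Pmel* (5.03 and 5.19 RPKM), and 3.75 and 12 RPKM for 4 immune markers, led by *Lyz2* (2.71 and 8.56 RPKM) with *Cd3e* at 0 in both replicates. The sums of 3 endothelial markers were 0.505 and 0.591 RPKM, led by *Kdr* at 0.345 and 0.321 RPKM.

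Levels are given as RPKM, counts scaled to a kilobase of counted sequence and to the exon counts of the library, which allows genes to be compared per length. Translational efficiency is the footprint RPKM on the CDS divided by the mean RNA-seq RPKM on exons. It is given as log2 relative to the median of the 9862 genes that passed the filters on low values, among them all 10 members. The SD given with it comes from the 2 RNA-seq replicates, and its 95% interval from the counts alone. Each library stands for 1 state of the cells, so no test was run and the values describe these libraries. The counting intervals treat reads as independent, which copies made by PCR are not. Ratios between single members, given below, were picked after the values were seen.

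Polyamines are small, positively charged molecules that bind RNA and are needed for growth. Ornithine decarboxylase makes putrescine from ornithine, and spermidine synthase and spermine synthase then add aminopropyl groups taken from decarboxylated S-adenosylmethionine. The pathway is known for feedback in translation. Polyamines favour a change of reading frame on antizyme mRNA, antizyme sends ornithine decarboxylase to the proteasome, and short reading frames in several 5′UTRs of the pathway are known to respond to polyamine levels.

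In RNA-seq over exons the 10 genes spanned from *Sms* at 6.89 RPKM to *Sat1* at 218 RPKM, taken as the mean of the replicates. The order from the highest was *Sat1*, *Azin1*, *Smox*, *Amd1*, *Oaz2*, *Odc1*, *Srm*, *Oaz1*, *Paox* and *Sms*. The replicate ranges of neighbours overlapped for *Smox* and *Amd1*, for *Odc1* and *Srm*, and for *Srm* and *Oaz1*, and did not overlap for the other neighbours. Counted over the CDS instead, RNA-seq put *Azin1* first (219 and 185 RPKM) and *Sat1* next (216 and 163 RPKM), with ranges that overlapped. It put *Oaz1* (50.1 and 61.2 RPKM) above *Oaz2* (44.4 and 51.1 RPKM). In means over the CDS, *Oaz1* (55.7 RPKM), *Odc1* (51.9 RPKM) and *Srm* (48.1 RPKM) also lay above *Amd1* (47.8 RPKM) and *Oaz2* (47.7 RPKM). The replicate ranges of these genes overlapped, so their places depend on the region counted. The order of footprint RPKM on the CDS was different, with *Odc1* at the top (395 RPKM), followed by *Oaz1*, *Srm*, *Sat1*, *Paox*, *Oaz2*, *Sms*, *Azin1*, *Amd1* and *Smox* (20.4 RPKM). In that order, only the steps below *Odc1*, below *Srm* and above *Smox* exceeded the 95% counting intervals of the neighbours.

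**Figure D1:**
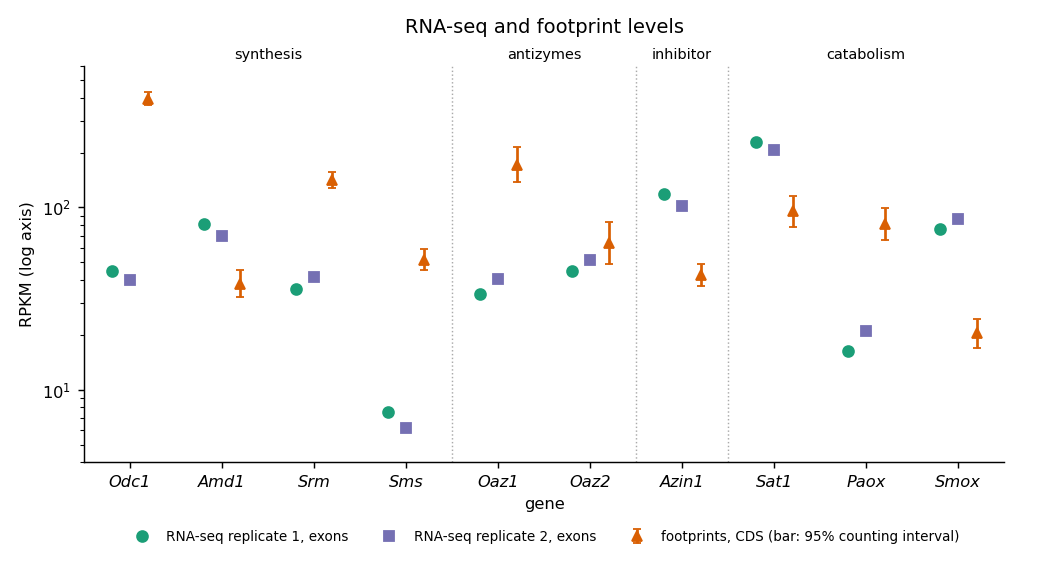
Levels of the 10 genes in RPKM on a log axis, grouped by role. Circles and squares are RNA-seq replicates 1 and 2 on exons, and triangles are footprints on the CDS with their 95% counting interval. *Odc1* has the highest footprint level (395 RPKM) from an RNA level near 42.5 RPKM, while *Sat1* has the highest RNA level on exons (218 RPKM).

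Of the 10 members, 5 had a log2 translational efficiency above 1, a side on which 20.7% of the 9862 genes lay, and 4 had one below -1, where 21.1% of all genes lay. Above 1 were *Odc1*, *Sms*, *Oaz1*, *Paox* and *Srm*, below -1 were *Amd1*, *Sat1*, *Azin1* and *Smox*, and *Oaz2* lay between. The median of the 10 was 0.80, beside 0 for all genes by construction. The part of the CDS that was counted differed among the members. Among the 5 whose annotated CDS was counted to 80% or more, a limit chosen after seeing the data, 2 were above 1 (*Srm* and *Sms*) and 3 below -1 (*Amd1*, *Azin1* and *Smox*), with a median of -1.29. On that set of genes 19.9% lay above 1 and 20.9% below -1. The median of the members therefore changed sign with the choice of members, while no member changed side under this limit. With RNA-seq counted over the CDS, *Amd1* (-0.37) was no longer below -1. This left 3 members there, against 19.5% of 9861 genes.

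**Figure D2:**
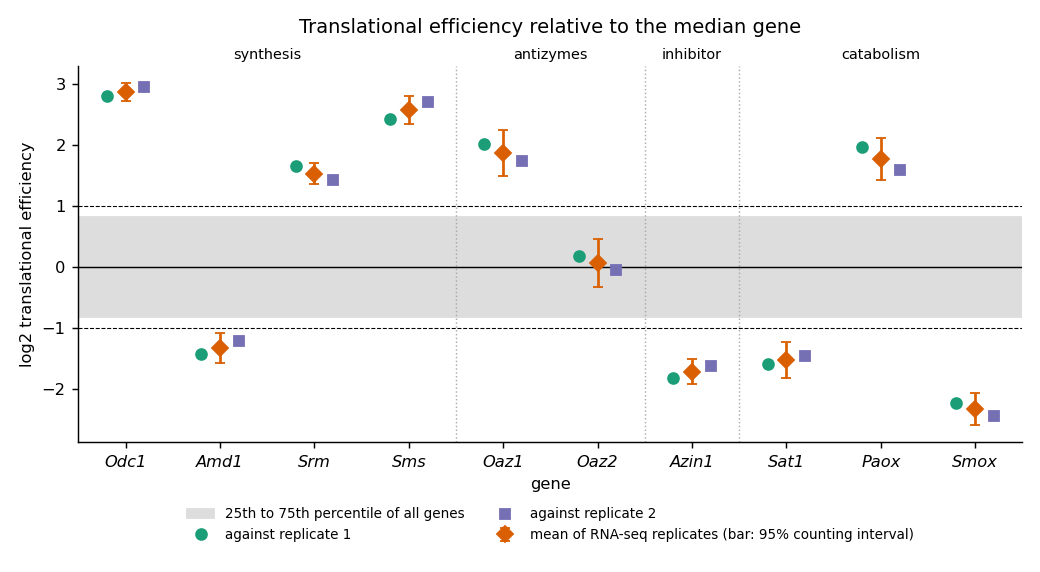
Log2 translational efficiency of the 10 genes relative to the median gene, grouped by role. Diamonds use the mean of the RNA-seq replicates, with a 95% counting interval, circles and squares use replicate 1 or 2 alone, dashed lines mark 1 and -1, and the grey band holds the 25th to 75th percentile of all genes (-0.82 to 0.82). Of the 10 genes, 9 lie outside the dashed lines with both replicates.

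Summed over the 4 synthesis genes, the RNA level was 170 and 157 RPKM in replicates 1 and 2, and the footprint level 626 RPKM. These genes made up 24.7% and 23.6% of the summed RNA level of the 10 members and 56.8% of their summed footprint level. *Odc1* alone held 395 RPKM of these footprints, and *Amd1* went against the sum with 38.1 RPKM. The 3 catabolic genes together had 46.6% and 47.3% of the RNA level and 17.9% of the footprint level, a difference that came from *Sat1* and *Smox*, while *Paox* had more footprint than RNA RPKM. The 2 antizymes held 11.4% and 13.8% of the RNA level and 21.4% of the footprint level, and the antizyme inhibitor 17.3%, 15.3% and 3.85%.

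*Odc1* (GRCm38, chr12:17544794-17551505, plus strand) encodes ornithine decarboxylase, the enzyme that commits ornithine to the pathway. Its RNA level was 44.9 RPKM in replicate 1 and 40.1 RPKM in replicate 2, from 444 and 517 counts. The footprint level on the CDS was 395 RPKM from 546 counts. The RNA level lay at percentile 80.7 of the passing genes and the footprint level at percentile 95.8. Its log2 translational efficiency was 2.87 ± 0.11 (SD, n = 2 RNA-seq replicates), with a counting interval from 2.72 to 3.02, the highest of the 10 but overlapping that of *Sms*. With RNA-seq counted over the CDS the order of these 2 turned (*Sms* 2.91, *Odc1* 2.88). Only 28.2% of the annotated *Odc1* CDS was counted, 390 of 1383 nt, and the value rests on that stretch. The genes closest to *Odc1* over the 3 levels (RPKM in each RNA-seq replicate and footprint RPKM, as Euclidean distance on the log2 scale over the 4829 genes that reached 100 counts in each of the 3 libraries) were *Ube2d3*, *Kdelr2* and *Atp5g1*, at distances of 0.16, 0.26 and 0.28.

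The 5′UTR of *Odc1* carried many footprints. The counted part of 239 nt held 468 footprints, 196 per 100 nt, against 140 per 100 nt on the counted CDS. The log2 ratio of these densities was 0.48, with a counting interval from 0.31 to 0.66, at percentile 94.8 of the 3916 genes with at least 60 counted nt of 5′UTR and 100 footprints on the CDS, whose median was -1.50. RNA-seq reads were also dense there, with a log2 ratio of -0.28 and 0.03 in the replicates. Divided by the RNA-seq ratio, the footprint ratio of *Odc1* was 1.53 (0.61 on the log2 scale, counting interval 0.33 to 0.89), at percentile 54.2 of all 3916 genes and 71.3 of the 2347 genes that also had at least 10 RNA-seq counts on the 5′UTR in each replicate, a limit chosen after seeing the data, so that its rank rested on both kinds of library. On the 3′UTR, 0.821 footprints were counted over 293 nt, and the log2 ratio to the CDS was -8.28 (interval -10.74 to -5.82).

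The annotated 5′UTR of *Odc1*, 489 nt in GENCODE M21 (GRCm38), holds 2 upstream reading frames that open with ATG and close before the CDS. The shorter is shown because it is a complete frame within a 5′UTR with dense footprints. It spans nt 128 to 154 of the transcript, at chr12:17544921-17544947 on the plus strand, in the 5′UTR, with start and stop codon in capitals. The counts are sums over the region, so they do not show whether footprints lay on this frame.
*Odc1* upstream frame: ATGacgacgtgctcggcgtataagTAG

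*Amd1* (chr10:40287458-40302186, minus strand) encodes S-adenosylmethionine decarboxylase, which makes the aminopropyl donor. Its RNA level was 81.5 and 69.7 RPKM in replicates 1 and 2, from 2798 and 3127 counts, and its footprint level on the CDS was 38.1 RPKM from 136 counts. RNA was thus at percentile 90.1 and footprints at percentile 66.8. Its log2 translational efficiency was -1.33 ± 0.15 (SD, n = 2), with a counting interval from -1.58 to -1.08. All of the 1002 nt of CDS were counted, and the CDS of *Amd2* differs from it at 1 of 1002 positions (99.9% identity), so the value belongs to both genes. With RNA-seq counted over the CDS in place of exons the value was -0.37, no longer below -1, and in RNA-seq 69.2% and 71.5% of the *Amd1* reads lay on the 3′UTR, which has 58.5% of the counted length. Nearest to *Amd1* over the 3 levels were *Gclm*, *Fam114a2* and *Eif2s3y*, at distances of 0.11, 0.15 and 0.19.

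On the 330 nt of *Amd1* 5′UTR there were 54.2 footprints, 16.4 per 100 nt against 13.5 per 100 nt on the CDS. The log2 ratio of 0.29 had a counting interval from -0.17 to 0.74, so the densities of both regions did not differ beyond counting error, yet it lay at percentile 92.7 of all genes. In RNA-seq the same ratio was 0.64 and 0.59, above the footprint value. Divided by RNA-seq, the ratio was 0.797 (log2 -0.33, interval -0.80 to 0.15), at percentile 33.8, or 47 among the 2347 genes with 10 or more RNA-seq counts on the 5′UTR.

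The *Amd1* 5′UTR of 328 annotated nt holds a single upstream ATG frame, which begins at nt 12 of the annotated transcript. It is known as a frame whose peptide stalls ribosomes when polyamines are plentiful, and it is shown because *Amd1* and *Amd2* carry it without a difference over 21 nt. It spans chr10:40302155-40302175 on the minus strand in *Amd1* and chr10:35711860-35711880 on the minus strand in *Amd2*, with start and stop codon in capitals.
*Amd1* upstream frame: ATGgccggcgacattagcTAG
*Amd2* upstream frame: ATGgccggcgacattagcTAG

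*Srm* (chr4:148591503-148594993, plus strand) encodes spermidine synthase. RNA stood at 35.7 and 41.4 RPKM in replicates 1 and 2, and its footprint level 141 RPKM from 385 counts. This is a log2 translational efficiency of 1.53 ± 0.16 (SD, n = 2), with a counting interval from 1.36 to 1.70, and 84.8% of the CDS was counted. On the 107 nt of 5′UTR there were 8.29 footprints and no RNA-seq count in either replicate. As a log2 ratio, 5′UTR footprints per nt relative to the CDS stood at -2.61 (interval -3.57 to -1.65), at percentile 23.1. No fold over RNA-seq is given for *Srm*, since its RNA-seq counts there are 0.

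*Sms* (chrX:157443855-157492287, minus strand) encodes spermine synthase, which adds the last aminopropyl group. It had the lowest RNA level of the 10, 7.58 and 6.2 RPKM in replicates 1 and 2, at percentile 24.7. Its footprint level of 51.8 RPKM, from 202 counts, lay at percentile 73.7. Its log2 translational efficiency of 2.57 ± 0.19 (SD, n = 2), with a counting interval from 2.34 to 2.80, came from a CDS counted in full. RNA of *Srm* was 4.7 and 6.67 times that of *Sms* in the replicates, and footprints 2.72 times (counting interval 2.3 to 3.23). The difference in log2 translational efficiency, *Srm* minus *Sms*, was -1.04 (interval -1.32 to -0.75). Counting RNA-seq over the CDS raised *Sms* to 2.91 and left *Srm* within its replicate SD. The difference was then larger in size than this interval spans.

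The 5′UTR of *Sms* went against that of *Odc1* and *Azin1*. The counted 93 nt held 10.3 footprints, and the log2 ratio to the CDS was -0.67 (interval -1.55 to 0.22). RNA-seq reads were denser on these 93 nt than on the CDS, with log2 ratios of 1.12 and 1.57, so that the footprint ratio was 0.25 times the RNA-seq ratio (log2 -2.00, interval -3.01 to -0.99), at percentile 6.54, or 8.73 among the 2347 genes. The annotated 5′UTR of 334 nt holds 4 upstream ATG frames, the most of the 10 members, and 27.8% of it was counted. On the 3′UTR of 2186 counted nt there were 3.23 footprints, while 64.5% and 58.6% of the RNA-seq counts of *Sms* lay there.

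*Oaz1* (chr10:80826656-80829290, plus strand) encodes antizyme 1, which binds ornithine decarboxylase and brings it to the proteasome. RNA-seq gave 33.6 and 40.7 RPKM in replicates 1 and 2, from 77.7 and 123 counts. The footprint level was 172 RPKM from 77 counts, the second highest of the 10, with a counting interval that overlapped that of *Srm*. The log2 translational efficiency was 1.87 ± 0.21 (SD, n = 2), with a counting interval from 1.49 to 2.25. Of the annotated CDS of 681 nt, 126 nt or 18.5% were counted, the smallest share of the 10. Its RNA level was near that of *Odc1*, which was 1.34 and 0.985 times as high in the replicates, a difference in opposite directions. Footprints on *Odc1* were 2.29 times those on *Oaz1* (counting interval 1.8 to 2.91).

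With fewer than 100 footprints, *Oaz1* was outside the set from which its neighbours were drawn. Nearest to it were *Ehd1*, *Klk8* and *Pnp*, at distances of 0.15, 0.17 and 0.20, and each of these had a log2 translational efficiency of 1.91. The 41 counted nt of 5′UTR held 3.58 footprints, too short a stretch for the comparison with all genes. Their log2 ratio to the CDS of -2.63 (interval -4.06 to -1.19) lay near the RNA-seq values of -2.17 and -2.26. The 3′UTR held 0.561 footprints over 49 nt.

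*Oaz2* (chr9:65668001-65690300, plus strand) encodes antizyme 2, a close relative of antizyme 1. Its RNA level on exons, 45 and 51.6 RPKM, was 1.34 and 1.27 times that of *Oaz1*, a direction that turned in both replicates with RNA-seq counted over the CDS. Its footprint level of 63.8 RPKM, from 55.9 counts, was below that of *Oaz1*, which was 2.7 times as high (counting interval 1.91 to 3.81). The log2 translational efficiency was 0.06 ± 0.15 (SD, n = 2), with a counting interval from -0.33 to 0.45, and its sign differed between replicate 1 (0.17) and replicate 2 (-0.05). The difference in log2 translational efficiency, *Oaz1* minus *Oaz2*, was 1.81 (interval 1.26 to 2.36). Counting RNA-seq over the CDS put *Oaz1* at 1.58 and *Oaz2* at 0.37, closer together than this interval spans. Of the *Oaz2* CDS 43.6% was counted. No footprint was counted over 196 nt of 3′UTR, which with 3 counts as the limit, and without the counting error of the CDS, puts the footprint density there at least 14.8-fold lower than on the CDS, while 50.4% and 44.9% of its RNA-seq counts lay on the 3′UTR.

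Both antizyme mRNAs end their first reading frame at a TGA that ribosomes must pass with a shift of frame to make the full protein. The annotated CDS skips 1 base at this place, the T of the TGA, after 204 nt of the first frame in *Oaz1* and 96 nt in *Oaz2*. The 27 bases around it are shown because the 2 genes differ at 2 of the 27 positions (92.6% identity), with the stop codon of the first frame in capitals. The sites lie in exons within the CDS, at chr10:80828283-80828309 for *Oaz1* and chr9:65686260-65686286 for *Oaz2*, both on the plus strand. Counts are given for the whole CDS, so footprints before and after the site were not separated.
*Oaz1* frameshift site: cggtggtgctccTGAtgtccctcaccc
*Oaz2* frameshift site: ctgtggtgctccTGAtgcccctcaccc

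*Azin1* (chr15:38487427-38519266, minus strand) encodes antizyme inhibitor 1, which resembles ornithine decarboxylase and takes antizyme away from it. Its RNA level was 119 and 102 RPKM in replicates 1 and 2, from 6411 and 7171 counts, at percentile 93.9. The footprint level on the CDS was 42.4 RPKM from 202 counts, at percentile 69.1. The log2 translational efficiency was -1.72 ± 0.15 (SD, n = 2), with a counting interval from -1.92 to -1.52, over a CDS counted in full. Against its relative *Odc1*, *Azin1* had 2.65 and 2.54 times the RNA in the replicates. Footprints on the CDS were 9.3 times higher on *Odc1* (counting interval 7.92 to 10.9). The difference in log2 translational efficiency, *Odc1* minus *Azin1*, was 4.60 (interval 4.35 to 4.85). Counting RNA-seq over the CDS put *Odc1* at 2.88 and *Azin1* at -2.30, further apart than this interval spans. The interval covers counting error and not the choice of region.

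The 5′UTR of *Azin1* held more footprints than its CDS. The 750 counted nt of 5′UTR held 289 footprints and the 1344 nt of CDS held 202, which is 38.6 and 15.1 per 100 nt. The counted 5′UTR is 160 nt longer than the 590 nt annotated in the 1 transcript used, so these counts include positions outside that 5′UTR. Whether these positions are 5′UTR in another annotated transcript was not tested. The log2 ratio of densities was 1.36 (interval 1.10 to 1.62), at percentile 99.1 of all genes. In RNA-seq it was -0.81 and -0.58. The footprint ratio was 4.17 times the RNA-seq ratio (log2 2.06, interval 1.79 to 2.33), at percentile 76.8 of all 3916 genes, and at percentile 93.5 of the 2347 genes with 10 or more RNA-seq counts there.

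The annotated 5′UTR of *Azin1* holds 3 upstream ATG frames. The frame that ends 1 nt before the CDS and the frame before it are shown as those nearest to the CDS, and the counts do not show whether footprints lay on them. They lie at chr15:38514482-38514505 (24 nt) and chr15:38501507-38501536 (30 nt), both in the 5′UTR on the minus strand, with start and stop codon in capitals. The conserved frame known from *Azin1* starts at a codon other than ATG and was not searched for.
*Azin1* upstream frame 2: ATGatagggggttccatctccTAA
*Azin1* upstream frame 3: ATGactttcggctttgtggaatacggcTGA

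*Sat1* (chrX:155213132-155216449, minus strand) encodes spermidine and spermine acetyltransferase, which marks polyamines for breakdown and export. On exons it had the highest RNA level of the 10, 228 and 207 RPKM in replicates 1 and 2, at percentile 97.4. Footprints on the CDS reached 95.5 RPKM from 97.6 counts. The log2 translational efficiency was -1.53 ± 0.09 (SD, n = 2), with a counting interval from -1.82 to -1.24. Of the 513 nt of CDS, 288 nt (56.1%) were counted. The missing 225 nt equal in number the exon positions of *Sat1* that were assigned to no region, but whether they are the same positions was not tested. The 225 nt of no region held 113 footprints, or 50.3 per 100 nt, against 33.9 per 100 nt on the counted CDS. RNA-seq was also denser there, with 329 against 231 counts per 100 nt in replicate 1 and 463 against 229 in replicate 2. Adding them to the CDS, which was tried after the values were known, gave a log2 translational efficiency of -1.25.

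The counted 5′UTR of *Sat1* held 156 footprints over 391 nt, and 60.9% of the footprints in its 3 regions (exact Clopper-Pearson 95% interval 54.7 to 67%). In RNA-seq this share was 31% and 35%. Relative to the CDS, the log2 density of 5′UTR footprints was 0.23 (interval -0.13 to 0.59), with RNA-seq at -0.29 and 0.06. The counted 5′UTR is 110 nt longer than the 281 nt annotated in the main coding transcript, so the row cannot be read as that 5′UTR alone. A length difference of 110 nt also separates the annotated transcript marked for nonsense-mediated decay (1272 nt) from the main coding transcript (1162 nt). Whether both differences cover the same positions was not tested. The annotated 5′UTR holds 2 upstream ATG frames, of which the shorter is complete before the CDS and is shown as the shortest frame among the members. It lies at chrX:155216271-155216285 on the minus strand, in the 5′UTR, with start and stop codon in capitals.
*Sat1* upstream frame: ATGgtgccagccTGA

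*Paox* (chr7:140115799-140137224, plus strand) encodes the peroxisomal oxidase that acts on acetylated polyamines. RNA-seq gave 16.4 and 21.1 RPKM in replicates 1 and 2, from 77 and 129 counts, and footprints on the CDS 81.1 RPKM from 93.9 counts. This gave a log2 translational efficiency of 1.77 ± 0.27 (SD, n = 2), the widest replicate spread of the 10, with a counting interval from 1.42 to 2.12. The value rests on 21.6% of the CDS, 326 of 1512 nt. On the 41 counted nt of 5′UTR there were 4.3 footprints, too short a stretch for the comparison with all genes.

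*Smox* (chr2:131491496-131525922, plus strand) encodes spermine oxidase, which returns spermine to spermidine. In RNA-seq it reached 75.8 and 86.6 RPKM in replicates 1 and 2, at percentile 91, and its footprint level of 20.4 RPKM, from 114 counts, was the lowest of the 10. Translational efficiency on the log2 scale was -2.34 ± 0.15 (SD, n = 2), with a counting interval from -2.60 to -2.07, at percentile 4.88 of all genes and with 94.8% of the CDS counted. RNA of *Smox* was 4.62 and 4.11 times that of *Paox* in the replicates, while footprints on *Paox* were 3.98 times those on *Smox* (counting interval 3.03 to 5.23). The difference in log2 translational efficiency, *Paox* minus *Smox*, was 4.11 (interval 3.67 to 4.55). It stayed inside this interval with RNA-seq counted over the CDS, where *Paox* was at 2.06 and *Smox* at -2.25. Relative to the CDS, the log2 density of 5′UTR footprints was 0.16 (interval -0.59 to 0.91), from 15.8 counts, with RNA-seq at -0.82 and -0.68. Divided by RNA-seq it was 0.91 (interval 0.14 to 1.67), at percentile 59.2, or 77.3 among the 2347 genes. The 3′UTR held 3 footprints over 274 nt, and its log2 ratio to the CDS of -2.51 (interval -4.04 to -0.97) lay at percentile 96.5 of the 4730 genes in that comparison.

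Taking the members that met the limits for the 5′UTR comparison (*Odc1*, *Amd1*, *Azin1*, *Srm*, *Sms* and *Smox*), 4 of 6 carried footprints more densely on the 5′UTR than within the CDS, against 11.1% of the 3916 genes. For *Odc1* and *Azin1* the counting interval lay above 0, and for *Amd1* and *Smox* it included 0. Divided by the RNA-seq ratio, in a count added after seeing the data, 2 of 6 (*Azin1*, and *Srm* from 0 RNA-seq counts with 0.5 added) exceeded a ratio of 2, against 38.9% of all genes, which is not above the background. With at least 10 RNA-seq counts on the 5′UTR in each replicate, 1 of 5 (*Azin1*) did, against 21.1% of 2347 genes. In RNA-seq the mean log2 ratio of 5′UTR over CDS was 0.61 for *Amd1*, -0.13 for *Odc1*, -0.70 for *Azin1* and -0.74 for *Smox*, all above the 75th percentile of all genes (-0.82). The highest was that of *Sms* at 1.33, whose footprints were not denser on the 5′UTR.

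**Figure D3:**
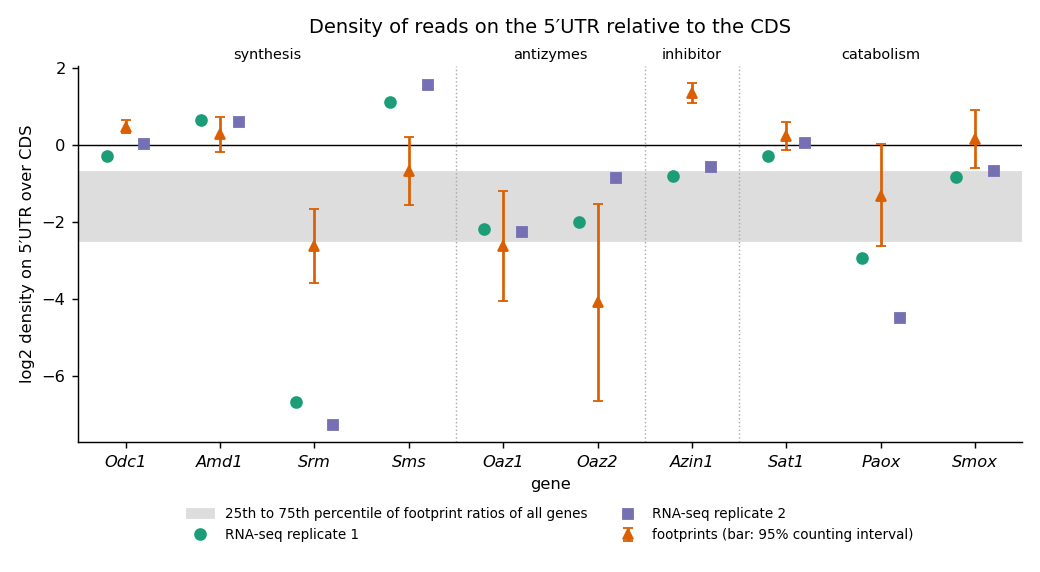
Log2 ratio of read density, 5′UTR over CDS, for the 10 genes, grouped by role. Triangles are footprints with a 95% counting interval, circles and squares are RNA-seq replicates 1 and 2, and the grey band holds the 25th to 75th percentile of footprint ratios of all genes (-2.49 to -0.71). The footprint value stands above both RNA-seq values in *Azin1* (1.36), *Odc1*, *Sat1*, *Smox*, *Paox* and *Srm*. It stands below both in *Amd1*, *Oaz1*, *Oaz2* and *Sms*. The RNA-seq points of *Srm* stand for 0 counts with 0.5 added.

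Upstream ATG codons were searched for in 1 chosen coding transcript per gene, and 5 of the 10 members held them (*Odc1*, *Amd1*, *Azin1*, *Sat1* and *Sms*). Other transcripts were not searched, and *Smox* has 9 full coding transcripts in the annotation. For the letters ATG on the transcript strand, at least 1 was present ahead of the CDS in 48.4% of the 9389 passing genes that were matched by name to GENCODE M21, whose median 5′UTR was 165 nt. The 5 members with an upstream ATG had the longest annotated 5′UTRs except for *Smox* (299 nt) against *Sat1* (281 nt), and more letters give more matches. Among the genes of the 5′UTR comparison that could be matched, the 1748 with an upstream ATG had a median log2 footprint ratio of -1.19 and the 2012 without had -1.72. The 5′UTR exceeded the CDS in footprint density in 18.1% of the former and 4.52% of the latter. Of the 6 members of that comparison, *Odc1*, *Amd1*, *Azin1* and *Sms* hold an upstream ATG, and of these *Sms*, with the most, was not denser on the 5′UTR. For *Sms* only 27.8% of the annotated 5′UTR was counted, and the interval of its ratio (-1.55 to 0.22) included 0. Of the 2 members without an upstream ATG, *Smox* was denser on the 5′UTR and *Srm* was not. A match of 3 letters does not show that a frame is used.

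On the 3′UTR, footprints were few in every member, with between 0 and 11 counts. The log2 ratio to the CDS had a median of -5.07 over the 6 members with at least 60 counted nt and 100 footprints on the CDS, beside -5.50 over the 4730 genes. The *Amd1* count of 11 over 1874 nt was 5.48% of the footprints in its 3 regions (exact Clopper-Pearson 95% interval 2.76 to 9.58%), against 69.2% and 71.5% of its RNA-seq reads. For *Azin1* the share was 2.09% (interval 1.1 to 3.89%) against 35.3% and 33.3% in RNA-seq. For *Sat1* it was 0.953% (interval 0.0948 to 2.79%) against 41% and 40.3%.

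**Figure D4:**
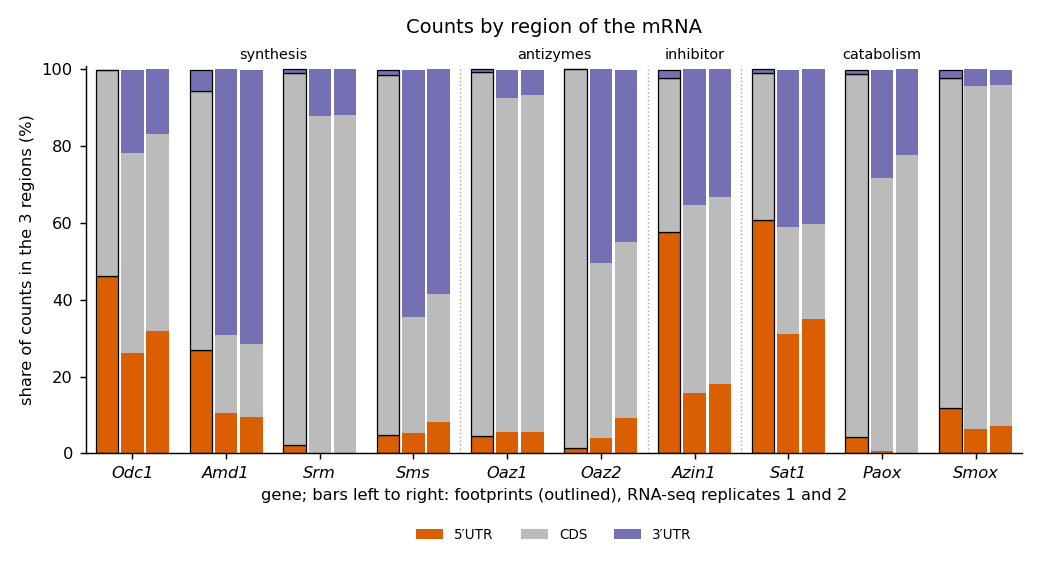
Share of the counts of each gene on the 5′UTR, CDS and 3′UTR, in percent of the counts in these 3 regions, grouped by role. The outlined bar of each gene is ribosome profiling, and the other bars are RNA-seq replicates 1 and 2. Footprints on the 5′UTR take 57.6% in *Azin1*, 60.9% in *Sat1* and 46.1% in *Odc1*, and footprints on the 3′UTR stay at or below 5.48% in each gene.

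In 6 of the 10 members the levels of both RNA-seq replicates lay over 2 counting errors apart, against 35.4% of the 9862 genes. Over all of these genes the chi-square per degree of freedom between the replicates was 7.52, so counting error alone understates their spread. Replicate 2 was lower than replicate 1 for *Azin1*, by 0.23 on the log2 scale against a counting error of 0.02, and for *Amd1*, *Sat1* and *Sms*. It was higher for *Smox*, with a log2 ratio of 0.19 and a counting error of 0.04, and for *Srm*. Across all genes the log2 ratio of replicate 2 over replicate 1 had an SD of 0.20 and a median of -0.01, and the ratios of the members ranged from -0.29 for *Sms* to 0.36 for *Paox*.

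Of the further genes of the pathway that were looked up, 16 passed the filters, among them *Azin2*, listed under its older symbol *Adc*, and *Amd2* in the row it shares with *Amd1*. Of these 16, 4 had a log2 translational efficiency above 1 and 4 below -1, against 20.7% and 21.1% of all genes. Their median was 0.17. Among those that did not pass, *Oaz3*, the antizyme of the testis, *Mat1a*, the liver form of S-adenosylmethionine synthetase, and *Aoc1* had no RNA-seq count and no footprint on the CDS.

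Above 1 were *Eif5a*, *Mtap*, *Eif5a2* and *Slc7a1*. *Eif5a* encodes the translation factor that carries hypusine, an amino acid made from spermidine, and had 220 and 228 RPKM of RNA in the replicates and 3812 footprints. Its log2 translational efficiency of 3.03 ± 0.05 (SD, n = 2; counting interval 2.98 to 3.09) lay at percentile 97.8, near that of *Odc1*. Its relative *Eif5a2* had 3.55 and 2.89 RPKM and a log2 value of 1.82 ± 0.20 (interval 1.22 to 2.42) from 23.5 footprints. *Mtap*, which recovers methionine from the by-product of aminopropyl transfer, reached 1.82 ± 0.11 (interval 1.64 to 2.00) with 23.6 and 20.9 RPKM. *Slc7a1*, a transporter of arginine and ornithine, reached 1.34 ± 0.03 (interval 1.24 to 1.44) with 44.7 and 45.7 RPKM.

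Below -1 were *Azin2*, *Atp13a2*, *Atp13a3* and *Amd2*, the last with the shared *Amd1* value. *Atp13a2*, a lysosomal polyamine exporter, had 5.81 and 7.24 RPKM and a log2 translational efficiency of -2.97 ± 0.24 (interval -3.77 to -2.17) from 12.8 footprints. Its relative *Atp13a3* had 62.2 and 56.5 RPKM and -1.40 ± 0.09 (interval -1.55 to -1.25) from 380 footprints. *Azin2*, a second antizyme inhibitor, had 3.39 and 4.91 RPKM and a single footprint, so its value of -4.69 has a counting interval from -7.52 to -1.85. The hypusine enzymes *Dhps* (-0.15) and *Dohh* (0.21) and the *Odc1* activator *Myc* (0.13) lay near the median of all genes.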

How the data were processed

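Used were 1 ribosome profiling and 2 RNA-seq libraries of SCCc, of 6 samples in the series. The other 3, long-read libraries of these cells, of wild-type (WT) keratinocytes and of skin cells, were not analysed here. The authors trimmed reads with Trim Galore, removed footprint reads that matched rRNA, tRNA or mitochondrial transcripts with Bowtie2 2.4.1, and aligned the rest to GRCm38 with STAR 2.6.1. The deposited expected counts and RPKM were made by the authors with Plastid 0.4.7, for whole exons and for the CDS and each UTR. The extraction text shared by all samples names cycloheximide for cells taken from skin, and does not say whether it was used on cultured cells. The annotation release of the Plastid counting is not given in the sources used here. The counted lengths are those deposited, and RPKM was recomputed with the sum of exon counts as library size. That sum was 1.75% of the total implied by the deposited RPKM for ribosome profiling. It was 21.1% and 21.3% for replicates 1 and 2 of RNA-seq. What the rest of these totals holds was not tested.

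Kept were genes that exceeded 1 RPKM in each RNA-seq replicate and a base mean of 25, with footprints on a counted CDS. Base means used DESeq2 1.42.0 size factors from rounded expected counts, and edgeR 4.0.16 TMM factors were an alternative (R 4.3.3). For region ratios 0.5 was added to each count, and intervals are 95% from counting error. Other steps used Python 3.11.15, numpy 2.4.6, pandas 2.3.3, scipy 1.17.1 and matplotlib 3.10.9. The calculation was also run on simulated data with known efficiencies, and the outcome is not reported here.

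The members and lists were chosen with earlier results of these data known. Single genes are named when they are members, when they belong to the pathway or marker lists, or when they are the 3 nearest genes of Odc1, Amd1 or Oaz1. Azin2 was matched by its older symbol. Part of the pathway list is not reported here. Upstream frames, gene positions and sequences come from GENCODE M21. Alternatives varied the replicates used, pseudocounts, filters, length scaling, library scaling, the region counted for RNA-seq and the limits of the 5′UTR comparison.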

Additional observations from a re-analysis of the deposited data

Results flagged for a closer look

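Footprints on exon positions that the deposited files assign to no region were left out of every region value. For Sat1 there were 113 such footprints on 225 nt, 30.7% of its 369 exon footprints, and in RNA-seq 23.7% and 28.1% of the exon counts lay on the same positions. For Smox there were 7.85 footprints on 208 nt, 5.57% of 141, against 9.83% and 9.53% in RNA-seq. Why these positions have no region was not tested.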

How the results depend on the processing

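No paired analysis was possible because the ribosome profiling library carries no replicate number that it shares with the RNA-seq libraries. With at least 100 counts in every library, 6 members passed, since Oaz1, Oaz2, Sat1 and Paox did not. Of these 6, 3 had a log2 translational efficiency above 1 instead of 5 of 10, and 3 had one below -1, beside 18.8% and 15.7% of the 4829 genes. The median of the members went from 0.80 to -0.29. The median gene of that set is higher, and each of the 6 values fell, Odc1 to 2.48 and Sms to 2.17. The median of the pathway list went from 0.17 to -0.18 with 13 genes. With counts not divided by length the median of the members was 0.96, and 9 of 10 members moved beyond their replicate SD. Sat1 went from -1.53 to -2.67, Azin1 from -1.72 to -2.61 and Amd1 from -1.33 to -2.00. Sms fell below Paox (2.36), Oaz1 (2.11) and Srm (2.04), and Oaz2 turned from 0.06 to -0.04. Chosen after seeing the data were 3 alternatives and the count of members above a footprint ratio of 2 times RNA-seq. The limit of 80% counted CDS left 2 members above 1 and a median of -1.29. The limit of 10 RNA-seq counts on the 5′UTR left 1 of 5 members in that count instead of 2 of 6. Adding the exon positions of no region to the CDS took Sat1 from -1.53 to -1.25 and Smox from -2.34 to -2.42. For Smox only 86 nt of CDS were missing against the 1 annotated transcript used, fewer than the 208 nt added. Whether the rest is coding in another of its transcripts was not tested. With RNA-seq over the CDS, 7 of 10 members moved beyond that SD. Amd1 went from -1.33 to -0.37, Azin1 from -1.72 to -2.30, and Sms (2.91) passed Odc1 (2.88). In that setting 5 members lay above 1 and 3 below -1, beside 18.3% and 19.5% of 9861 genes. Leaving out either RNA-seq replicate kept 5 members above 1 and 4 below -1, with medians of 0.69 and 0.91. Of all genes, 21.1% lay above 1 and 21.2% below -1 without replicate 1. Without replicate 2 the shares were 20.6% and 20.9%. The count of 4 of 6 members denser on the 5′UTR stayed at 4 without added counts, beside 10.3% of 3916 genes. With at least 30 footprints on the CDS it was 5 of 8, now with Sat1, beside 16.2% of 6356 genes. With 5′UTRs of at least 30 counted nt it was 4 of 6, beside 10.6% of 4456 genes. It was also 4 after division by RNA-seq, with Srm in place of Amd1, where 58.9% of all genes met the same rule. TMM and DESeq2 factors were rescaled to the same geometric mean of library sizes, so mean RNA levels could hardly move under them. That alternative is therefore no test of these levels. Counting RNA levels over the CDS moved 7 of 10 beyond the replicate SD. Azin1 went from 110 to 202 RPKM, Oaz1 from 37.1 to 55.7 and Amd1 from 75.6 to 47.8. The single ribosome profiling library limits every footprint value, and the low counts of Oaz1, Oaz2 and Paox widen their intervals.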

Other observations

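In RNA-seq, 5′UTR reads of Srm were 0 in both replicates, with exact Clopper-Pearson 95% upper limits of 0.883% in replicate 1 and 0.583% in replicate 2, while 8.29 footprints (2.09%) lay there. Oaz2 had 10.4 and 36.1 RNA-seq counts on its 5′UTR and 0.746 footprints.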
